A study of Rattus norvegicus with 24 samples.

Results

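The contractile machinery of smooth muscle was followed in the rat urethra through 10 genes: Acta2, Actg2, Myh11, Tagln, Cnn1, Smtn, Lmod1, Myocd, Synpo2 and Mylk. They were chosen by symbol as genes of the smooth muscle contractile programme, and all 10 were found once each among the 32883 genes of the table. The question was how their mRNA levels differed between the study's 6 groups. The animals were 12-week-old virgin female Sprague-Dawley rats, and every one of them had undergone simulated vaginal delivery (SVD), a crush of the pudendal nerve with distension of the vagina. They then received, by injection into the aorta, saline, allogeneic mesoangioblasts (MABsallo) or allogeneic mesoangioblasts overexpressing VEGF (MABsallo-VEGF). Mesoangioblasts are vessel-associated progenitor cells, here grown from the hind limb skeletal muscle of another rat and carrying a lentiviral reporter of green fluorescent protein and luciferase. The VEGF cells also carried a lentivirus for VEGF165 and a truncated CD34. Urethras were taken at 3d or 7d, with 4 samples in each of the 6 groups. Uninjured urethra was not analysed here, so every level below is a level after SVD.

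In smooth muscle, the myosin heavy chain encoded by Myh11 pulls on filaments of the actins encoded by Acta2 and Actg2. The kinase encoded by Mylk starts contraction by phosphorylating the myosin light chain, and the proteins of Tagln, Cnn1, Smtn, Lmod1 and Synpo2 bind, assemble or bundle the actin filaments. Most of these genes are known targets of serum response factor (SRF), which binds a DNA element called the CArG box, and Myocd encodes the SRF cofactor that drives the programme in smooth muscle. In the urethra, smooth muscle forms the inner layers of the wall and lies inside the striated sphincter. Acta2 is also a known product of myofibroblasts, the contractile fibroblasts of wounds, and of pericytes.

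Because the members are known as SRF targets, the bases just before their transcription starts were searched for the CArG box. Sequences came from RefSeq (build GRCr8), which held promoters for 6 of the 10 members: Acta2, Actg2, Cnn1, Smtn, Synpo2 and Mylk. Myh11, Tagln, Lmod1 and Myocd were not matched. The windows searched ran from 250 bases before to 50 bases after the start, and 33469 such windows were available in all. The classical CArG box, in which 6 letters that are all A or T stand between CC and GG, reads as the same pattern on both strands. It was in 0 of the 6 member windows and in 1.64% of all windows. With 5 of the 6 letters required to be A or T, Acta2 held 2 boxes and the other 5 held none, against 9.42% of all windows with at least 1 and 0.846% with at least 2. The motif CATTCC, the MCAT element of TEAD factors, was searched on both strands and lay in the windows of Acta2 and Mylk, against 14.2% of all windows. It did not overlap the boxes. The 250 bases before the start are shown for Acta2 and Synpo2, the 2 members whose levels differed most often between groups. Capitals mark the CArG-like boxes, which start 134 and 84 bases before the start of Acta2. The Acta2 window is on the minus strand at chr1:241172504-241172753 and that of Synpo2 on the minus strand at chr2:214055845-214056094.
Acta2: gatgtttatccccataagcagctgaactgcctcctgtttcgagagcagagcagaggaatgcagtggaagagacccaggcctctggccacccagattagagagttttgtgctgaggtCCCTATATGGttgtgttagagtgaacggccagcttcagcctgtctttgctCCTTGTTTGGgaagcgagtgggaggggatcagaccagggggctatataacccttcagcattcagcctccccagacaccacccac
Synpo2: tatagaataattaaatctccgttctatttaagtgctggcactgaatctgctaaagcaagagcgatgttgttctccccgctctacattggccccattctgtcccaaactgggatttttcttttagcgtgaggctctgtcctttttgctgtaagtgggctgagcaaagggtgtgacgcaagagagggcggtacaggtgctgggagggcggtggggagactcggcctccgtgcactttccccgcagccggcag
These matches are letters in a window, and no binding was measured.

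The libraries were 3′ mRNA libraries in which each transcript gives reads near its end, so levels are compared between samples within a gene and not between genes. Values are the authors' normalized counts, and the reads behind them were recovered as whole numbers. The libraries held 2170695 to 10166052 reads. Those of the cell-treated 3d groups were the shallowest, at 2170695 to 4491900, against 4851797 to 5249467 in saline 3d and 5244129 to 10166052 at 7d. The 10 members together took 0.106% to 1.24% of the reads in saline 3d, 0.255% to 0.785% in the cell-treated 3d groups and 0.659% to 1.98% at 7d. Markers of smooth muscle, striated muscle and urothelium were all read in these samples. A pair of libraries stood apart from their group. On the first principal component of the 500 most variable genes, saline 3d replicate 6 (54.6) lay among the MABsallo 3d samples (49.8 to 90.1), and MABsallo-VEGF 3d replicate 4 (0.7) lay nearer to the other saline 3d samples (-52.3 to -6.43) than to its own group (57.3 to 75.2). Calls that rest on these libraries are given with and without them, that is, over 24 and over 22 samples. Both libraries were picked by expression values of these same data. Leaving them out therefore favours a call between saline and the cell-treated groups at 3d, and the calls over 22 samples are not separate support. Another library, saline 3d replicate 8, had the lowest level of all 10 members within its group. It is singled out by the members' own values, so calls gained only by leaving it out are not separate support.

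Genes were tested with limma on log2(normalized count + 1), all 24 samples in 1 model, and a gene was called where its Benjamini-Hochberg adjusted p was below 0.05 and its log2 fold change was beyond 1. All 10 members were among the 16287 genes tested. A p-value here measures only the spread between these samples, which may be partly technical. MABsallo against saline at 3d called 1 of the 10 members, Synpo2, where 12.3% of all tested genes were called. MABsallo-VEGF against saline at 3d called 0, where 0.0307% of all genes were called. Over 22 samples it called 1, again Synpo2, beside a background of 13.6%, and MABsallo against saline called the same 1 beside 18.1%. The change from 3d to 7d called 2 members in saline (background 3.19%), 3 in MABsallo (23.0%) and 2 in MABsallo-VEGF (15.3%). Over 22 samples these counts were 0 in saline (background 0.190%), 2 in MABsallo (23.7%) and 2 in MABsallo-VEGF (20.3%). Over 24 samples Acta2 was among the called members in every treatment, Synpo2 in both cell-treated groups, Smtn in saline and Tagln in MABsallo. In all these comparisons the bulk tissue was measured, so fewer smooth muscle cells and less RNA in each cell cannot be told apart.

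**Figure D1:**
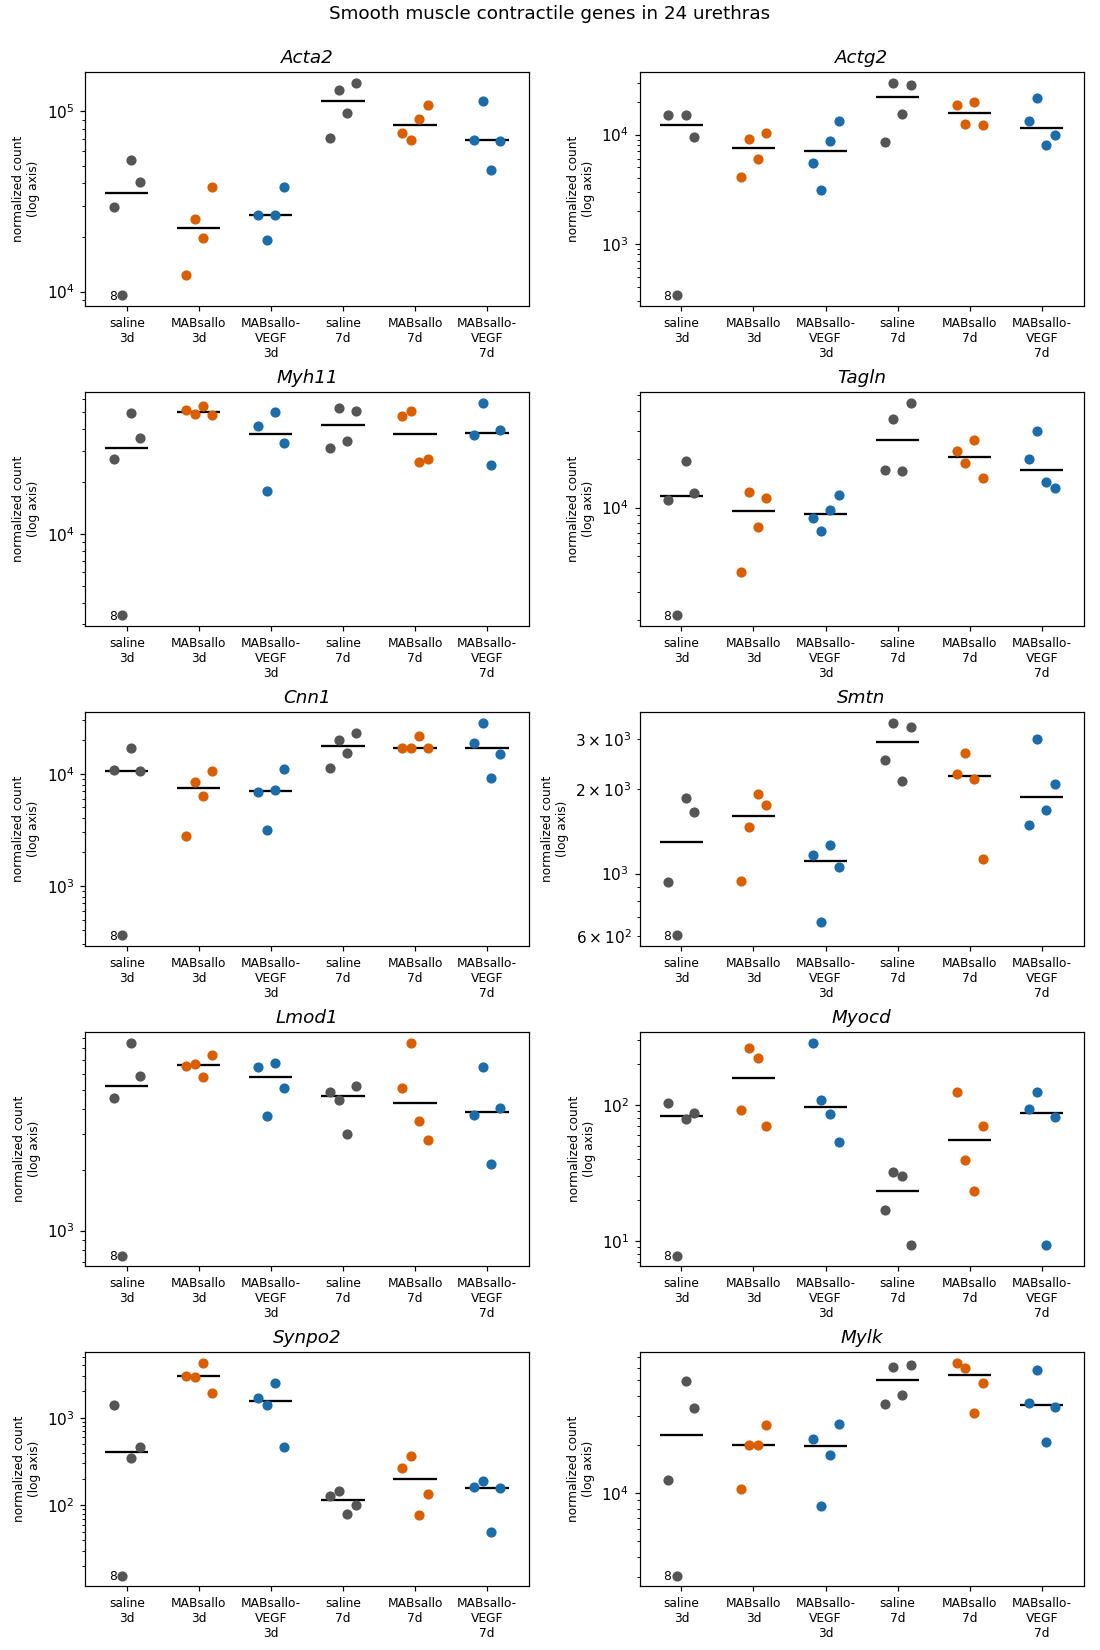
Normalized counts (log axis) of the 10 members in each of the 24 urethras, by group. Points are samples, black bars are group medians, grey is saline, orange MABsallo and blue MABsallo-VEGF, and saline 3d replicate 8 is marked 8. Within each treatment every 7d sample of Acta2 lies above every 3d sample, while Synpo2 reaches 1915 to 4228 in MABsallo 3d and at most 368 at 7d.

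Acta2 (ENSRNOG00000058039), the actin most used to mark smooth muscle, rose from 3d to 7d in all 3 treatments. At 3d its normalized count was 29619, 9536, 53628 and 40529 in saline (replicates 6, 8, 9 and 10). It was 12368, 25406, 19728 and 38103 in MABsallo and 26765, 19411, 26577 and 38128 in MABsallo-VEGF (replicates 1 to 4 in both). The 3d groups overlapped throughout. At 7d it was 71545, 131670, 98182 and 144662 in saline (replicates 1, 2, 3 and 5). It was 75988, 69191, 91189 and 107980 in MABsallo (replicates 7.2, 9, 11 and 13), and 69330, 114253, 47521 and 68711 in MABsallo-VEGF (replicates 6, 7, 11 and 12). Within saline and within MABsallo every 7d sample lay above every 3d sample, as it did within MABsallo-VEGF. By median the order was saline 7d, MABsallo 7d, MABsallo-VEGF 7d, saline 3d, MABsallo-VEGF 3d and MABsallo 3d, and every neighbouring pair in that order overlapped. The log2 fold change from 3d to 7d was 1.94 in saline (SE 0.43, adjusted p = 0.0184), 1.94 in MABsallo (SE 0.43, adjusted p = 0.00169) and 1.40 in MABsallo-VEGF (SE 0.43, adjusted p = 0.0233). Over 22 samples the MABsallo and MABsallo-VEGF calls remained (1.94, adjusted p = 0.00185, and 1.57, adjusted p = 0.0171). The saline value was 1.97 with adjusted p = 0.0659, so that call was lost, as it was without saline 3d replicate 6 alone (adjusted p = 0.0824) and with only the groups compared in the model (adjusted p = 0.153). It was also lost without saline 7d replicate 5 (1.80, adjusted p = 0.0763). The MABsallo-VEGF call was lost without MABsallo-VEGF 3d replicate 2 (1.25, adjusted p = 0.0787), 3d replicate 3 (1.40, adjusted p = 0.0531) or 7d replicate 7 (1.18, adjusted p = 0.0837), and with quantile normalization (1.09, adjusted p = 0.0747). The difference between treatments in this change was 0.00 for MABsallo against saline (95% CI -1.25 to 1.26) and -0.54 for MABsallo-VEGF against saline (95% CI -1.79 to 0.72), and neither was called. Without saline 3d replicate 8, the lowest sample, the saline change fell to 1.42 and was still called. Both differences against saline therefore depend on that sample.

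Acta2 is also a product of myofibroblasts and pericytes, so the lists of their markers are given beside it. From 3d to 7d, 0.602% of all genes were called higher and 2.59% lower in saline. These shares were 6.05% and 17.0% in MABsallo and 2.24% and 13.1% in MABsallo-VEGF. Over 22 samples they were 0.0614% and 0.129% in saline, 6.22% and 17.5% in MABsallo, and 3.72% and 16.6% in MABsallo-VEGF. Of 9 myofibroblast and matrix genes, 0 were called from 3d to 7d in saline or MABsallo by limma, and 1 was lower in MABsallo-VEGF. Higher at 7d, whether called or not, were 0 of the 9 in saline (median log2 fold change -0.68), 7 in MABsallo (0.48) and 2 in MABsallo-VEGF (-0.61). Over 22 samples 1 was called higher in MABsallo, Col3a1 (1.47, adjusted p = 0.0389). Their summed level ranged from 328965 to 483000 in saline 3d and from 161087 to 282585 in saline 7d, and from 46811 to 274076 in MABsallo 3d and from 217074 to 590362 in MABsallo 7d. Of 8 pericyte genes, 0 were called higher and 1 lower in saline and in MABsallo, and over 22 samples 1 higher and 1 lower in MABsallo-VEGF. The adipocyte list moved over the same interval, with 7 of 7 genes higher in MABsallo, 3 of 7 in saline and 0 of 7 in MABsallo-VEGF. Its sum ran from 440 to 1680 in MABsallo 3d and from 1159 to 38193 in MABsallo 7d, with Lep at 0 in 10 of the 24 samples. In saline it ran from 875 to 9364 at 3d and from 3240 to 33951 at 7d. In MABsallo-VEGF it ran from 395 to 1859 at 3d and from 615 to 3919 at 7d. In MABsallo-VEGF against saline at 7d the median log2 fold change of this list was -5.95, with 0 of 7 genes higher and 0 called. Of 10 epithelial genes, 2 were called higher and 1 lower in MABsallo, and 1 was called higher in saline. As a list the epithelial genes were mostly higher at 7d, 9 of 10 in saline (median log2 fold change 1.69), 8 of 10 in MABsallo (0.87) and 9 of 10 in MABsallo-VEGF (1.30), beside medians of 1.43, 0.79 and 0.93 for the members. Of 8 macrophage genes 3 and of 7 endothelial genes 2 were higher in MABsallo, 1 endothelial gene was higher in MABsallo-VEGF and 1 lower in saline, and 1 of 9 striated muscle genes was lower in MABsallo. Over 22 samples none of these lists held a call in saline, and 1 striated muscle gene, Neb, was also lower in MABsallo-VEGF (-1.69, adjusted p = 0.0215). The part of tissue composition in the Acta2 result was not tested.

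Actg2 (ENSRNOG00000029401), the other smooth muscle actin and the one known for visceral muscle, was called in none of the 9 comparisons by limma. In saline 3d it was 15199, 337, 15153 and 9420, in MABsallo 3d 4111, 9158, 5973 and 10334, and in MABsallo-VEGF 3d 5510, 3084, 8718 and 13442. In saline 7d it was 8557, 30008, 15463 and 28681, in MABsallo 7d 18662, 12560, 19884 and 12268, and in MABsallo-VEGF 7d 13219, 21707, 8031 and 9857. In MABsallo every 7d sample lay above every 3d sample, although the log2 fold change of 1.16 had an adjusted p of 0.284. The error is common to all groups, saline 3d with its low replicate 8 included, and without that sample the MABsallo change had an adjusted p of 0.0423 and was called. Acta2, Actg2 and the striated actin Acta1 have nearly identical coding sequences, and the authors discarded reads that aligned to several places, so the split between the actins is uncertain.

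The share of Actg2 against Acta2 within each sample does not depend on how samples were scaled. Its ratio was 0.513, 0.0353, 0.283 and 0.232 in saline 3d, and the mean was 0.317 ± 0.0384 (SD, n = 4) in MABsallo 3d and 0.261 ± 0.0937 in MABsallo-VEGF 3d. At 7d the mean was 0.176 ± 0.0473 in saline, 0.190 ± 0.0571 in MABsallo and 0.173 ± 0.0223 in MABsallo-VEGF. From 3d to 7d the log2 ratio differed by -0.79 in MABsallo (SE 0.26), the 4 samples of 7d all below the 4 of 3d. A two-sided exact permutation test gave p = 0.0286, the smallest that 4 against 4 samples allow, and 0.257 after adjustment over the 9 comparisons. In the other 8 comparisons the exact permutation p lay between 0.143 and 0.943. None passed after adjustment. A single comparison at the smallest p could not pass, since that p became 0.257, so the adjusted result decides nothing.

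Myh11 (ENSRNOG00000057880), the smooth muscle myosin heavy chain, followed a different order from Acta2. It was 26803, 3387, 49901 and 35796 in saline 3d, 51490, 49051, 54772 and 48193 in MABsallo 3d, and 41559, 17552, 50006 and 33390 in MABsallo-VEGF 3d. At 7d it ranged from 31243 to 52764 in saline, from 25938 to 51225 in MABsallo and from 24805 to 57014 in MABsallo-VEGF. The MABsallo 3d samples were the tightest group, and their lowest value lay just under the highest saline 3d value. MABsallo against saline at 3d gave a log2 fold change of 1.34 (SE 0.54, adjusted p = 0.0920) and was not called. Without saline 3d replicate 9 it was called (1.78, adjusted p = 0.0485), the only one of 34 alternatives that did so. No change from 3d to 7d was called, with 1.04 in saline, -0.49 in MABsallo and 0.19 in MABsallo-VEGF.

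The ratio of Myh11 to Acta2 within a sample was looked at after the values were seen and is given without a test. It was 0.905, 0.355, 0.930 and 0.883 in saline 3d. It was 4.16, 1.93, 2.78 and 1.26 in MABsallo 3d and 1.55, 0.904, 1.88 and 0.876 in MABsallo-VEGF 3d. All MABsallo 3d samples lay above all saline 3d samples, while MABsallo-VEGF 3d overlapped saline 3d. At 7d it ranged from 0.350 to 0.437 in saline, from 0.251 to 0.740 in MABsallo and from 0.499 to 0.575 in MABsallo-VEGF. Apart from saline 3d replicate 8, every 3d sample lay above every 7d sample. Lmod1 to Acta2 behaved alike, from 0.0789 to 0.526 at 3d and from 0.0261 to 0.123 at 7d, with saline 3d replicate 8 again the exception. Tagln to Acta2 varied less and overlapped between the days, from 0.225 to 0.493 at 3d and from 0.142 to 0.310 at 7d.

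**Figure D2:**
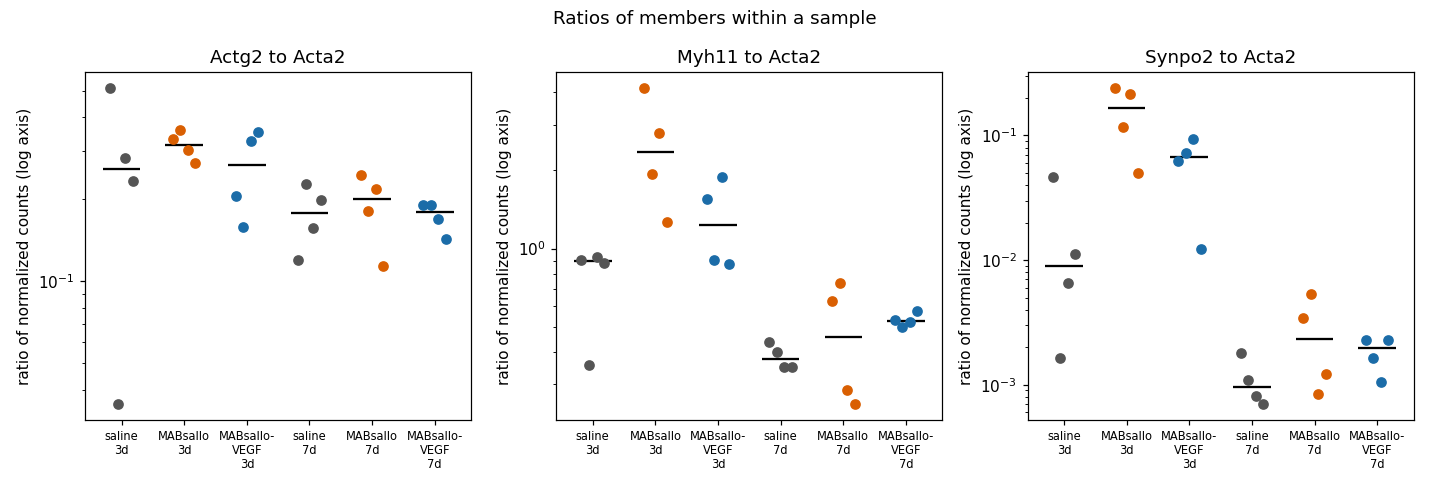
Ratio of the normalized counts of Actg2, Myh11 and Synpo2 to that of Acta2 in the same sample (log axes), by group, with points for samples and bars for medians. The Myh11 ratio is 1.26 to 4.16 in MABsallo 3d and 0.251 to 0.740 over all 7d samples, and the Synpo2 ratio is 0.0503 to 0.242 in MABsallo 3d and at most 0.00531 at 7d.

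Mylk (ENSRNOG00000002215), the kinase that switches the myosin on, was 12083, 3061, 49636 and 33547 in saline 3d. It ranged from 10608 to 26435 in MABsallo 3d and from 8318 to 26760 in MABsallo-VEGF 3d. At 7d it ranged from 35796 to 62217 in saline, from 31551 to 64313 in MABsallo and from 20674 to 58298 in MABsallo-VEGF. In MABsallo the days did not overlap. The log2 fold change there was 1.43 (SE 0.58) with an adjusted p of 0.0622, just short of the threshold, and it was called by edgeR (1.54, adjusted p = 0.0326) and DESeq2 (1.41, adjusted p = 0.0242) on the recovered reads. It was also called without saline 3d replicate 8 (adjusted p = 0.0120) or 9 (adjusted p = 0.0393). In saline the value was 1.62 (adjusted p = 0.117) and in MABsallo-VEGF 1.04 (adjusted p = 0.211).

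Tagln (ENSRNOG00000017628), which encodes transgelin, ran close to Acta2. It was 11205, 2144, 19534 and 12362 in saline 3d and 17206, 35218, 16819 and 44781 in saline 7d, and the groups overlapped. In MABsallo it was 3997, 12523, 7598 and 11484 at 3d and 22448, 18927, 26310 and 15343 at 7d, with no overlap. In MABsallo-VEGF it ranged from 7134 to 11915 at 3d and from 13303 to 30005 at 7d, again with no overlap. The log2 fold change was 1.57 in saline (SE 0.49, adjusted p = 0.0716), 1.32 in MABsallo (SE 0.49, adjusted p = 0.0441) and 1.01 in MABsallo-VEGF (adjusted p = 0.153), so the call was made in MABsallo. It held under 24 of 34 alternatives. It was lost without MABsallo 3d replicate 1 (0.98, adjusted p = 0.166) or 3 (1.29, adjusted p = 0.0861), without any 1 of the MABsallo 7d samples (adjusted p of 0.0508 to 0.105), without MABsallo-VEGF 7d replicate 6 (adjusted p = 0.0505), over 22 samples (adjusted p = 0.0504), without the filter on low values (adjusted p = 0.0547) and with quantile normalization (adjusted p = 0.0723). In MABsallo-VEGF the change was called without saline 3d replicate 8 (adjusted p = 0.0472).

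Cnn1 (ENSRNOG00000027736), for calponin, an inhibitor of the myosin ATPase, was 10719, 361, 16965 and 10476 in saline 3d and 2769 to 10589 in MABsallo 3d. It was above that range in all 4 MABsallo 7d samples, 16857, 17086, 21706 and 16808. The log2 fold change was 1.52 with adjusted p = 0.131, and it was called without saline 3d replicate 8 (adjusted p = 0.00491). In MABsallo-VEGF the range was 3134 to 10904 at 3d and 9208 to 28510 at 7d, with overlap. There the value of 1.37 (adjusted p = 0.207) was also called without that saline sample (adjusted p = 0.0142).

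Smtn (ENSRNOG00000019451), for smoothelin, a protein known from fully differentiated contractile cells, rose from 3d to 7d in saline. It was 933, 604, 1851 and 1650.4 at 3d and 2523, 3430, 2127 and 3314 at 7d. The groups did not overlap and the log2 fold change was 1.29 (SE 0.33, adjusted p = 0.0331). The call held under 25 of 34 alternatives. It was lost over 22 samples (1.19, adjusted p = 0.135), with only the groups compared in the model (adjusted p = 0.153), with scaling to the same total (1.30, adjusted p = 0.0634), under the fold limit with sample quality weights (0.96, adjusted p = 0.00639), without saline 3d replicate 6 (1.19, adjusted p = 0.146) or 8 (0.98, adjusted p = 0.0561), and without saline 7d replicate 2, 3 or 5 (adjusted p = 0.0840, 0.0504 and 0.114). In MABsallo-VEGF the range was 675 to 1261 at 3d and 1491 to 3015 at 7d, also without overlap. Its log2 fold change of 0.97 had an adjusted p of 0.0415 and lay under the fold limit, while edgeR called it (1.09, adjusted p = 0.0235). In MABsallo the days overlapped, and the value was 0.42 (adjusted p = 0.367).

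Lmod1 (ENSRNOG00000051548), for leiomodin, which starts new actin filaments, was not called in any comparison by limma. It ranged from 753 to 8459 in saline 3d, from 5788 to 7383 in MABsallo 3d and from 3717 to 6770 in MABsallo-VEGF 3d. At 7d it ranged from 3014 to 5195 in saline, from 2822 to 8526 in MABsallo and from 2132 to 6506 in MABsallo-VEGF. Its median was higher at 3d than at 7d in each treatment, the opposite of Acta2. The log2 fold changes from 3d to 7d were 0.25 in saline, -0.53 in MABsallo and -0.50 in MABsallo-VEGF, with adjusted p-values of 0.839, 0.446 and 0.515. The saline fold change was thus a rise, unlike its median, and saline 3d held replicate 8 at 753.

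Over the change from 3d to 7d, 2 members did not overlap between the days in saline, where 10.6% of all genes did not. In MABsallo the number was 6, with a background of 27.0%, and in MABsallo-VEGF it was 4, with a background of 21.8%. The 6 in MABsallo were Acta2, Actg2, Tagln, Cnn1 and Mylk, all higher at 7d, and Synpo2, lower at 7d. The median log2 fold change of the members was 1.43 in saline, 0.79 in MABsallo and 0.93 in MABsallo-VEGF, beside medians over all tested genes of -0.05, -0.06 and -0.05. The saline median includes saline 3d replicate 8, the lowest of its group for all 10 members.

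**Figure D3:**
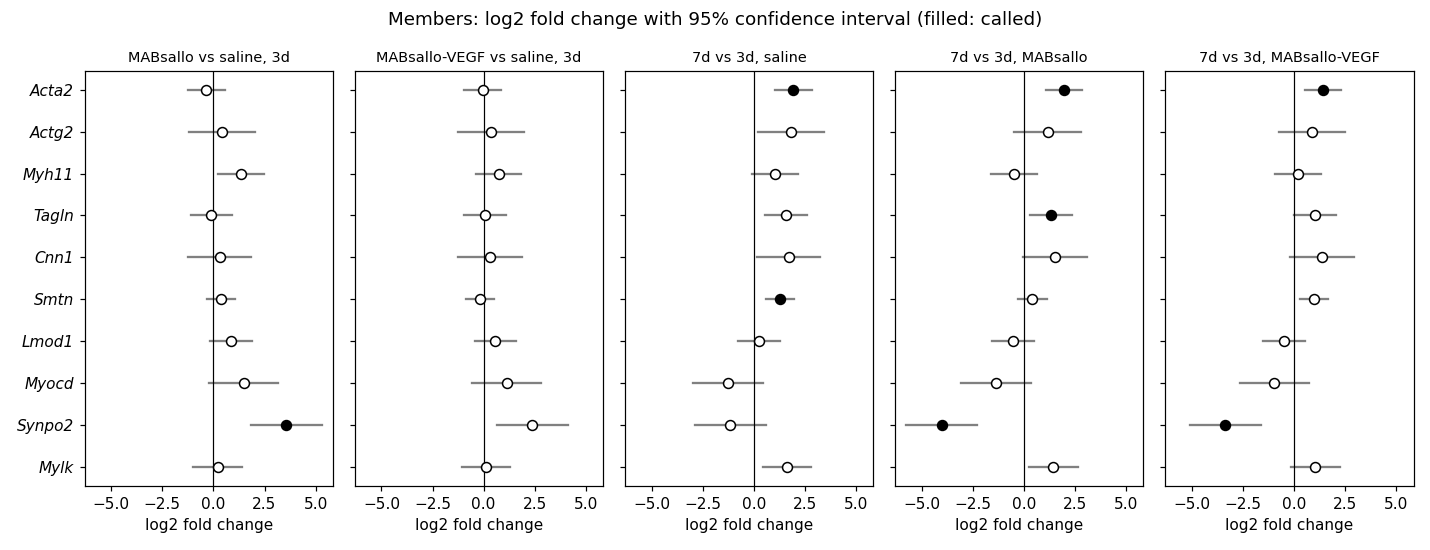
Log2 fold change of each member with its 95% confidence interval from limma over 24 samples, in the comparisons of treatment at 3d and of 7d with 3d, filled where called. Acta2 lies at 1.40 to 1.94 in the changes from 3d to 7d, and Synpo2 is at 3.56 in MABsallo against saline at 3d and at -4.03 and -3.36 from 3d to 7d in the cell-treated groups.

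Synpo2 (ENSRNOG00000014867), for myopodin, an actin-bundling protein of the Z-disc and of smooth muscle dense bodies, was the member with the largest differences. In saline 3d its normalized count was 1384, 15.7, 350.2 and 458. In MABsallo 3d it was 2989, 2949, 4228 and 1915. In MABsallo-VEGF 3d it was 1665, 1409, 2472 and 468. All MABsallo 3d samples lay above all saline 3d samples, as the groups did not overlap for 14.7% of all tested genes, and the highest saline value came from replicate 6, the library near the MABsallo group. The lowest MABsallo-VEGF value came from replicate 4, the library near saline. At 7d it was 128, 144, 80.4 and 101 in saline, 263, 368, 76.7 and 133 in MABsallo, and 160, 188, 49.7 and 158 in MABsallo-VEGF. By median the order was MABsallo 3d, MABsallo-VEGF 3d, saline 3d, MABsallo 7d, MABsallo-VEGF 7d and saline 7d, and every neighbouring pair overlapped.

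MABsallo against saline at 3d gave a log2 fold change of 3.56 for Synpo2 (SE 0.84, 95% CI 1.82 to 5.29, adjusted p = 0.0117). Over 22 samples it was 4.39 (adjusted p = 0.000523). The call held under 33 of 34 alternatives and was lost with only the groups compared in the model (adjusted p = 0.116). MABsallo-VEGF against saline at 3d gave 2.38 (SE 0.84, 95% CI 0.65 to 4.11, adjusted p = 0.145) and was not called over 24 samples. It was called over 22 samples (3.69, adjusted p = 0.00432), without saline 3d replicate 6 alone (3.21, adjusted p = 0.0183) and without MABsallo-VEGF 3d replicate 4 alone (2.86, adjusted p = 0.0447). The 2 kinds of cells differed at 3d by -1.18 (95% CI -2.91 to 0.55, adjusted p = 0.866), MABsallo-VEGF minus MABsallo, which was not called. From 3d to 7d Synpo2 fell by 4.03 on the log2 scale in MABsallo (adjusted p = 0.00108) and fell by 3.36 in MABsallo-VEGF (adjusted p = 0.00668), and both calls held under all 34 alternatives. In saline the value was -1.14 (adjusted p = 0.497) and was not called. Without saline 3d replicate 8, a sample singled out by the members' own values, it was -2.44 (adjusted p = 0.00721) and was called. On the recovered reads the saline change was called by DESeq2 (-2.28, adjusted p = 0.0111) and edgeR (-2.25, adjusted p = 0.0485). Whether the change differed between treatments was tested directly, with -2.88 for MABsallo against saline (adjusted p = 0.297) and -2.22 for MABsallo-VEGF against saline (adjusted p = 0.637). Neither was called, nor were they over 22 samples (-3.71, adjusted p = 0.0527, and -3.53, adjusted p = 0.0764).

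Most of the cell-treated 3d libraries, where Synpo2 was high, also differed from the others in 2 features, mitochondrial share and depth. Mitochondrial genes took 23.8% to 35.4% of the reads in MABsallo 3d and 28.4% to 39.1% in MABsallo-VEGF 3d replicates 1 to 3. They took 15.7% in MABsallo-VEGF 3d replicate 4, 20.04% in saline 3d replicate 6, 12.7% to 17.9% in the other saline 3d samples and 11.8% to 16.2% at 7d. The 7 cell-treated 3d libraries with 23.8% or more held 2170695 to 4491900 reads, and MABsallo-VEGF 3d replicate 4 held 4039089, within that range. Saline 3d replicate 6, with the highest Synpo2 of its group, held the most reads of its group, 5249467. It also had the highest mitochondrial share of its group. Saline 3d replicate 8, with the lowest Synpo2, was the one at 17.9%. Striated muscle genes moved as well in MABsallo against saline at 3d, where 9.40% of all genes were called higher. Of the 9, 3 were called higher: Neb (2.27, adjusted p = 0.00870), Tnnt3 (1.55, adjusted p = 0.0345) and Mylpf (1.42, adjusted p = 0.0483). Over 22 samples 1 of the 9 was called, Neb (2.11, adjusted p = 0.00687), beside 13.8% of all genes called higher. Neb was also called over 22 samples in MABsallo-VEGF against saline (1.73, adjusted p = 0.0398), beside 11.4%. Synpo2 is also expressed in striated muscle. The summed level of that list was 55568 to 235460 in saline 3d, 128676 to 493918 in MABsallo 3d and 129878 to 274595 in MABsallo-VEGF 3d, none of its markers being at 0 in any sample. The part of mitochondrial share, depth and striated muscle in the Synpo2 result was not tested. Several transcripts that lie within the Synpo2 gene in the reference could share its reads if strand was not used in counting, and the strand setting is not given in the sources used here.

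**Figure D4:**
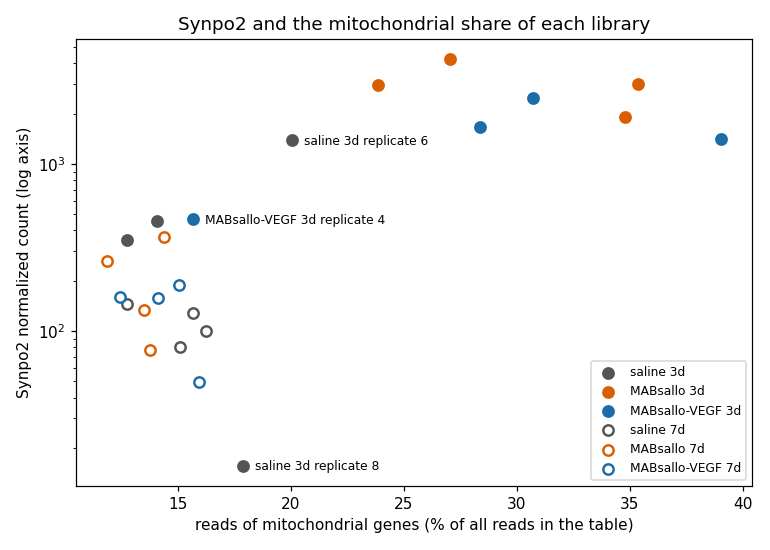
Normalized count of Synpo2 (log axis) against the percentage of reads from mitochondrial genes in each of the 24 libraries, with filled points for 3d and open points for 7d. The cell-treated 3d libraries lie at 23.8% to 39.1% and at 1409 to 4228, except MABsallo-VEGF 3d replicate 4 at 15.7% and 468, while all 7d libraries lie at 11.8% to 16.2% and at most 368.

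Myocd (ENSRNOG00000003669), the master cofactor of the programme, was read at low depth, down to 2 reads in saline 3d replicate 8. It was 103, 7.84, 78.6 and 88.0 in saline 3d, 92.3, 263, 222 and 70.5 in MABsallo 3d and 287, 108, 85.8 and 53.4 in MABsallo-VEGF 3d. At 7d it was 16.9, 32.4, 30.1 and 9.43 in saline, 124, 39.7, 23.4 and 70.6 in MABsallo, and 94.3, 126, 9.31 and 82.0 in MABsallo-VEGF. The groups overlapped in every comparison and none was called by limma. The largest difference was that of MABsallo against saline at 3d, at 1.48 (95% CI -0.22 to 3.18, adjusted p = 0.223). At 7d the values against saline were 1.38 for MABsallo and 1.43 for MABsallo-VEGF, with 95% CI of -0.32 to 3.08 and -0.27 to 3.13.

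The treatments were not told apart by the members at 7d. MABsallo against saline, MABsallo-VEGF against saline and MABsallo-VEGF against MABsallo each called 0 of 10 members by limma, and edgeR and DESeq2 each called 0. At an unadjusted p below 0.05 they also held 0 members, where 6.23%, 6.34% and 2.78% of all genes passed. Each background was 0% as well. The same held for MABsallo-VEGF against MABsallo at 3d, with 0 members called by all 3 tools (background 0.00614%) and 0 at an unadjusted p below 0.05 (background 6.13%). In MABsallo-VEGF against saline at 3d, edgeR and DESeq2 also called 0, and 1 member had an unadjusted p below 0.05, where 17.9% of all genes did. The confidence intervals were wide. For Acta2 at 7d they ran from -1.23 to 0.54 on the log2 scale for MABsallo against saline. For MABsallo-VEGF against saline they ran from -1.48 to 0.29. Differences within those limits were compatible with the data. The tests of a difference between treatments in the change from 3d to 7d called 0 members by limma, edgeR and DESeq2, with a background of 0%. At an unadjusted p below 0.05 they held 1 member, Synpo2, for MABsallo (13.6% of all genes) and 0 for MABsallo-VEGF (8.23%).

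The samples of MABsallo-VEGF 7d include 2 whose labels mark urethral recovery, replicates 6 and 7, and 2 without that mark, replicates 11 and 12. Replicate 7 had the highest level of all 10 members in its group, and replicate 11 had the lowest of 8. Both recovered samples lay above both others for 7 members: Acta2, Actg2, Tagln, Cnn1, Myocd, Synpo2 and Mylk, where 17.5% of all tested genes did. Most members vary together, so the 7 are not separate counts. For Tagln the values were 19937 and 30005 against 14452 and 13303, and for Cnn1 18965 and 28510 against 9208 and 15024. For Acta2 and Synpo2 the nearest samples were almost level, at 69330 against 68711 and at 159.6 against 157.6. For Myh11, Smtn and Lmod1 they interleaved. With 2 samples on each side no test was made.

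Of the 10 members, 8 mostly varied together from animal to animal, and Myocd and Synpo2 followed them less. Among the 8 members other than Myocd and Synpo2, the Pearson correlation of log2 values over the 24 samples had a median of 0.780 over 28 pairs, and 0.83 after the group means were removed. Without saline 3d replicate 8 the median within groups was 0.657, from 0.327 to 0.910. With the group means kept, the pairs without that sample ran from -0.304 to 0.924, with a median of 0.727. The correlation of Synpo2 with these 8 had a median of -0.128 over 24 samples and 0.598 within groups (0.414 to 0.794), and without saline 3d replicate 8 these were -0.628 and -0.072. With Myocd it was 0.782 and 0.743 over 24 samples, and 0.733 and 0.598 without that sample. Myocd with the 8 had a median of 0.069 over 24 samples and 0.529 within groups. Without that sample the medians for Myocd were -0.381 and 0.151. These are descriptions, and the points share library depth and scaling. The genes most like the mean standardized level of the 10 members, among 11159 other genes with a mean normalized count of at least 50, were Flna (Pearson r = 0.907, Spearman coefficient = 0.869 over 24 samples), Pcp4 (0.901 and 0.673), AABR07016841.1 (0.885 and 0.752), Upk1a (0.877 and 0.640), LOC498222 (0.873 and 0.394) and Tspan2 (0.873 and 0.748). Without the 2 samples farthest from the median, saline 3d replicate 8 and MABsallo-VEGF 3d replicate 2, Flna was at 0.802 and LOC498222 at 0.223, so the likeness of the latter rests on those samples. Flna encodes filamin, which crosslinks actin, and ranged from 6605 in saline 3d replicate 8 to 58680 over the 24 samples.

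The wider contractile genes were counted from lists. Of 22 other contractile and cytoskeletal genes of smooth muscle, 5 were called higher and 0 lower in MABsallo against saline at 3d, where 9.40% of all genes were called higher and 2.86% lower. Over 22 samples 6 were higher and 0 lower, beside 13.8% and 4.36% of all genes. Among the 5 over 24 samples were Tns1, for tensin (4.51, adjusted p = 0.00983), Kcnma1, the large-conductance potassium channel (2.34, adjusted p = 0.0131), and Pgm5, a protein of adherens junctions in muscle (3.85, adjusted p = 0.0151). Tns1 and Pgm5 were read at low levels, with medians of 22.1 and 12.9 over the 24 samples and values of 0 in 1 and 2 of them. Their fold changes therefore rest on few reads. In MABsallo-VEGF against saline at 3d 0 were called by limma, Tns1 (3.80, adjusted p = 0.0823) and Kcnma1 (1.77, adjusted p = 0.125) having the smallest adjusted p. Over 22 samples 5 were called higher there and 0 lower, beside 11.4% and 2.19% of all genes. Among the 5 were Tns1 (5.40, adjusted p = 0.00146), Kcnma1 (2.54, adjusted p = 0.00638), Pgm5 (3.22, adjusted p = 0.0377) and Cacna1c (1.30, adjusted p = 0.0416). From 3d to 7d in MABsallo 2 were called higher and 6 lower, among them Cacna1c, the L-type calcium channel (-1.87, adjusted p = 0.00123) and Pgm5 (-4.55, adjusted p = 0.00142), with Csrp1 in the other direction (1.29, adjusted p = 0.00159). Of all genes, 6.05% were called higher and 17.0% lower, and over 22 samples the list gave the same counts of 2 and 6. In MABsallo-VEGF 1 was higher, Pdlim3 (1.02, adjusted p = 0.0428), and 3 were lower, among them Cacna1c (-1.39, adjusted p = 0.0155) and Tns1 (-3.51, adjusted p = 0.0182), beside 2.24% of all genes higher and 13.1% lower. Over 22 samples the counts there were 3 higher and 5 lower. In saline 0 were called over 24 or 22 samples, Fhl1 (1.16, adjusted p = 0.0642) being nearest. Their median log2 fold change was 0.33 in MABsallo against saline at 3d, beside 0.07 over all genes. From 3d to 7d in MABsallo, Synpo2, Cacna1c and Pgm5 were called lower, and Acta2, Tagln and Csrp1 higher. Cacna1c, Pgm5 and Csrp1 were named because they were called, so their opposite directions are no separate result.

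Of the 9 SRF cofactors and other transcription factors measured, 4 were called higher and 0 lower in MABsallo against saline at 3d: Mrtfa, Tead1 (3.19, adjusted p = 0.0121), Gata6 and Mef2c (1.28, adjusted p = 0.0241). The shares of all genes in that comparison were those given above, 9.40% higher and 2.86% lower. Over 22 samples 4 were higher and 1 lower, Srf (-1.21, adjusted p = 0.0153). Mrtfa, which carries actin signals to SRF, was read so rarely that it is given by level: it was listed at 0 in 15 of the 24 samples and reached 78.1 in MABsallo 3d. Gata6 is given in the same way, at 21.7 to 56.8 in MABsallo 3d and 0 to 7.04 in saline 3d. Tead1 ranged from 103 to 356 in MABsallo 3d, 66.8 to 292 in MABsallo-VEGF 3d and 3.92 to 79.2 in saline 3d. Srf ranged from 683 to 2615 in MABsallo 3d and from 4138 to 6089 in MABsallo 7d, a log2 fold change of 1.97 from 3d to 7d (adjusted p = 0.000500). In MABsallo-VEGF the ranges were 967 to 3184 and 3374 to 5334, with 1.36 (adjusted p = 0.0116), and in saline 1525 to 4046 and 3610.3 to 7651, with 1.20 (adjusted p = 0.0692) and no call. In the cell-treated groups Srf and Acta2 both rose, while 4 of the 9 were lower at 7d in MABsallo and 3 of the 9 in MABsallo-VEGF, or 4 in each over 22 samples. Tead1 fell by 3.27 in MABsallo (adjusted p = 0.00250) and fell by 4.20 in MABsallo-VEGF (adjusted p = 0.000641), and Gata6 was listed at 0 in all 4 MABsallo-VEGF 7d samples. In MABsallo-VEGF against saline at 3d 0 of the 9 were called by limma, Tead1 being nearest (2.93, adjusted p = 0.0780). Over 22 samples 4 were called higher there, Mrtfa, Gata6, Tead1 (3.98, adjusted p = 0.00191) and Mef2c (1.36, adjusted p = 0.0297), and Srf was lower (-1.20, adjusted p = 0.0297). At 7d, and between the 2 kinds of cells, neither this list nor that of the 22 genes held a called gene. The smallest adjusted p there was 0.478, for the transcription factor Klf4 in MABsallo-VEGF against saline at 7d (1.58).

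Markers of other cells are given beside these counts, since their share of the tissue bears on every level above. In MABsallo against saline at 3d, 9.40% of all genes were called higher and 2.86% lower. There 4 of 8 macrophage genes were called lower, C1qb (-2.26, adjusted p = 0.0109), C1qa (-1.74, adjusted p = 0.0156), Csf1r (-2.11, adjusted p = 0.0175) and C1qc (-1.85, adjusted p = 0.0214), with a summed level of 1448 to 13874 against 13308 to 25983. Of 7 endothelial genes 3 were called lower, Tie1 (-1.33, adjusted p = 0.0142), Emcn (-1.37, adjusted p = 0.0196) and Cldn5 (-1.18, adjusted p = 0.0458). Of 8 pericyte genes Notch3 was called higher (16.3 to 334 against 0 to 13.8, adjusted p = 0.00717) and Anpep lower (-1.30, adjusted p = 0.0106), and Notch3 was at 0 in 7 samples. Of 10 epithelial genes Krt14 was called higher (4.15, adjusted p = 0.0432). None of the 9 myofibroblast genes or the 7 adipocyte genes was called, the nearest being Col1a1 (-1.85, adjusted p = 0.0626) and Aqp7 (-2.42, adjusted p = 0.0984). Over 22 samples 2 myofibroblast genes were called lower, Col3a1 (-1.77, adjusted p = 0.0308) and Col1a1 (-1.94, adjusted p = 0.0477), and 1 adipocyte gene, Aqp7 (-3.23, adjusted p = 0.0230). There 1 pericyte gene was higher and 2 were lower, and the macrophage, endothelial and epithelial counts were 4 lower, 3 lower and 1 higher. Of all genes, 13.8% were called higher and 4.36% lower over the 22 samples. In MABsallo-VEGF against saline at 3d none of these lists held a call by limma, and the smallest adjusted p was 0.123, for Neb (1.57). Over 22 samples Krt14 (4.39, adjusted p = 0.0492) and Notch3 were called higher there, and Emcn (-1.46, adjusted p = 0.0126), Tie1 (-1.37, adjusted p = 0.0161), Kcnj8 (-1.08, adjusted p = 0.0279) and Mcam (-1.05, adjusted p = 0.0378) lower, with no macrophage, myofibroblast or adipocyte gene called. The shares of all genes in that comparison were 11.4% called higher and 2.19% lower. In saline 3d replicate 8, where the members were lowest, the epithelial list was also lowest of its group at 3880 against a median of 27852, and the macrophage list was highest at 25983.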

How the data were processed

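Rat urethra was profiled with 3′ mRNA libraries, 24 samples in 6 groups taken from the labels. The authors aligned single-end reads with HISAT2 to Rnor6.0, discarded multi-mapped reads, counted genes with HTSeq (strand setting not given in the sources used here) and scaled each library by its DESeq2 size factor. The deposited values are therefore a signal per gene, called normalized counts. Whole reads were recovered for 100% of values within a tolerance of 0.01, and the libraries held 2170695 to 10166052 reads. Counting error is largest for genes read a few times, such as Myocd.

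Log2(normalized count + 1) of genes with a mean of at least 2 was fitted with limma 3.58.1 in R 4.3.3 (trend, 6 groups, 24 samples), with Benjamini-Hochberg adjustment over 16287 genes. Alternatives were edgeR 4.0.16 and DESeq2 1.42.0 on the recovered reads, other scalings, filters and pseudocounts, sample weights, 22 samples and each sample left out. In MABsallo against saline at 3d limma called 1997 genes, edgeR 1342 and DESeq2 1927. On simulated data for that comparison, limma found 132 of 200 genes changed by 2 on the log2 scale, with 12 unchanged genes called. Replicates differed by more than sampling noise in all 36 pairs within groups.

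The members and gene lists were chosen with earlier results of these data known. All 10 members are named. Of the other lists, the called genes with the smallest adjusted p were named, up to 4 per list and comparison, or the nearest where none was called. Some results under this rule are not reported here. Mrtfb, Prkg1, Myh1, Myh2, Ttn, Col1a2 and Pecam1 were not analysed here. Neighbouring or overlapping genes can share reads with Acta2, Tagln, Smtn, Myh11, Synpo2, Myocd, Mylk and Lmod1.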

Additional observations from a re-analysis of the deposited data

Results flagged for a closer look

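Within groups of 4 samples, 66 sets of values were examined on the log2 scale for a highest or lowest sample far from the others, and 6 stood out, where chance gives about 1 in 20. Saline 3d replicate 8 was far below its group for Actg2 (337 normalized counts), Cnn1 (361) and Myocd (7.84). MABsallo-VEGF 7d replicate 11 was far below its group for Myocd (9.31) and Synpo2 (49.7). MABsallo 7d replicate 11 was above its group for Cnn1 (21706), where the other 3 samples lay close together.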

How the results depend on the processing

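Of 110 member values, 8 were called, and 3 of these kept the call under every alternative: Acta2 in MABsallo and Synpo2 in both cell-treated groups from 3d to 7d. No called value changed sign. Of the 102 not called, 91 were called under no alternative, and 45 changed sign under at least 1 while uncalled. From 3d to 7d in saline, the number of members called was 2, against 4 with DESeq2, 4 with sample quality weights, 1 with scaling to the same total, 0 with only the groups compared and 0 over 22 samples. In MABsallo it was 3, against 6 with only the groups compared. In MABsallo-VEGF it was 2, against 1 with quantile normalization and 4 with sample quality weights. At 3d, MABsallo against saline called 1, against 0 with only the groups compared, and MABsallo-VEGF against saline called 0, against 1 with sample quality weights and 1 over 22 samples. The cause of these shifts was not tested. The median log2 fold change of all genes, 0.07 in MABsallo against saline at 3d and -0.06 from 3d to 7d in MABsallo, became -0.14 and 0.21 with quantile normalization and -0.19 and 0.14 with scaling to the same total. With each sample left out in turn, the counts ranged from 1 to 2 and from 0 to 1 in these comparisons at 3d, from 0 to 2 in saline, from 2 to 6 in MABsallo and from 1 to 4 in MABsallo-VEGF from 3d to 7d, and were 0 in all others. The extremes came without saline 3d replicate 9 (2), replicate 6 (1 and 0) or replicate 8 (6 and 4), MABsallo-VEGF 3d replicate 4 (1), and saline 7d replicate 5 (0). MABsallo and MABsallo-VEGF at 3d share replicate numbers, and with a replicate block 0 members were called, as without it. Same-numbered samples (replicates 1 to 4) correlated at 0.222, 0.151, 0.0734 and 0.254, against at most 0.2, 0.0237, 0.0789 and -0.0143 with another number. Replicates 1, 2 and 4 thus correlated best with their own number, and replicate 3 did not. The labels state no pairing, and the numbers were not taken to pair the samples. All 81 alternative values of the Actg2 to Acta2 ratio stayed short of the threshold (adjusted p of 0.129 to 1). With so few samples a single comparison at the smallest possible p cannot pass after adjustment, so this is no sign of a stable result.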
